A study of Mus musculus with 16 samples.

Results

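The locus described here is the stretch of mouse chromosome 1 that holds the costimulation genes Cd28, Ctla4 and Icos, chr1:60760001-61090000 of the build mm9, 330 kb long. Its members are all islands of 2 chromatin assays that overlap this window, chosen by position alone. They number 401 of the 469755 islands listed in 16 libraries, with 164 from H3K27ac ChIP-seq and 237 from DNase-seq. An island is a run of enriched 200-bp windows joined by the peak caller SICER. H3K27ac is an acetylation of histone H3 found at active promoters and enhancers, and DNase-seq marks DNA that is open to cutting by DNase I.

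The cells were CD4 T cells of Bcl11b fl/fl-CreERT2 mice on a C57BL/6 background, grown in culture under Th2 conditions. 4-OHT, an active form of tamoxifen, switches on the CreERT2 recombinase, which removes the floxed part of Bcl11b, a transcription factor gene of T cells. Late KO cells were cultured for 4 days without 4-OHT, rested for 1 day in medium with IL-2, and then cultured for 4 more days with 4-OHT. Late WT cells had the same history without 4-OHT. Early KO cells were grown with 4-OHT for the initial 4 days, and early WT cells without it. Every group has 2 libraries of each assay. All of the mice carried the floxed alleles and CreERT2, and no culture that kept the gene received 4-OHT, so loss of Bcl11b and exposure to 4-OHT cannot be told apart. The labels name naive cells as the source, yet their sort is CD4+CD44high, and CD44 is high on activated cells. They do not say that the replicates were separate cultures or animals, so the spread behind each p-value may be technical.

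CD28 is the costimulatory receptor of T cells, which binds the B7 ligands on antigen-presenting cells and adds to the signal of the T cell receptor. CTLA4 binds the same ligands more tightly and acts as an inhibitory receptor. ICOS is induced after activation, binds its own ligand, and supports helper T cell functions that include Th2 cytokine production and help to B cells. The genes belong to 1 receptor family and lie side by side. In the RefSeq table of the build GRCm38.p6 the order is Cd28, Ctla4, Icos, with 6 non-coding genes or pseudogenes between Cd28 and Ctla4, 2 between Ctla4 and Icos, and 0 other protein-coding genes between them. That table is of another build than the islands, so no island could be assigned to a gene, and islands are named by position in mm9.

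The promoter of Ctla4, the inhibitory member, is shown because it is the RefSeq promoter sequence matched for 1 of the 3 genes. It runs over chr1:60908775-60909074 of GRCm38.p6 on the plus strand, from 250 bases before to 50 bases after the gene's start, and cannot be laid on the mm9 islands. Capitals mark the match to GGAAAA, the core recognised by NFAT, read on the opposite strand.
Ctla4 promoter: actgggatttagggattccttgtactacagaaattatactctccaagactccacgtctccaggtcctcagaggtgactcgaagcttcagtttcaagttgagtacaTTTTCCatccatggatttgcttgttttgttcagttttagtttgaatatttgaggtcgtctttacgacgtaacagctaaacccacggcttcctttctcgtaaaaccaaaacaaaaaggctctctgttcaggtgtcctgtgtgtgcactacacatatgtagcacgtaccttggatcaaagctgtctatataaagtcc
The NFAT core occurs at base 106 of the sequence, and 23.4% of 32851 RefSeq promoters of the same length hold at least 1 such match on either strand. The GATA core, searched as AGATAA or with a last G as AGATAG, and likewise as TGATAA or with a last G as TGATAG, had 0 matches, and 29.8% of promoters hold one. The RUNX letters TGTGGT had 0 matches (16.8% of promoters hold one), and the AP-1 letters TGANTCA also had 0 matches (7.81% of promoters hold one).

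The H3K27ac lists held 26548 to 32112 islands covering 101 to 112 Mb, and the DNase lists 17397 to 39736 islands covering 25.9 to 66.8 Mb. The DNase lists were shorter in KO cells, with 26.1 Mb covered on average in late KO cells against 48.5 Mb in late WT cells, and 40.3 Mb in early KO cells against 56.6 Mb in early WT cells. The deposited lists carry no read counts, so depth is unknown, and a missing island says only that a list does not hold one. Each list gives a score per island from the authors' caller. It is used here only to rank islands within a list, as a score percentile, the share of that list's islands with a lower score.

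The locus was densely covered in every library. H3K27ac islands covered 128.4 to 177.6 kb of the 330 kb, more than in 99.5% to 99.9% of the genome's tiles of the same length that held an island. DNase islands covered 30.2 to 88.4 kb, at percentiles 99.2 to 99.96 among such tiles. Merged over the 8 libraries of an assay, the H3K27ac islands formed 17 regions, of which 10 were present in all 8 libraries (51.2% of regions over the genome). The DNase islands formed 31 regions, of which 12 were present in all 8 (27.3% over the genome).

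The broadest H3K27ac region lay at chr1:60800001-60839800 and was a single island of 38.8 to 39.6 kb in every library. Its score percentile was 99.7 to 99.9, and it was the strongest island of the locus in 6 of 8 lists. In the late KO lists the strongest was another broad island, chr1:60943401-60982400 in replicate 1 and chr1:60943601-60979400 in replicate 2. It ranked only just above the broadest one, at percentiles of 99.744 against 99.740 in replicate 1 and 99.790 against 99.739 in replicate 2. The other regions found in all 8 libraries were 33 kb wide at chr1:60909001-60942000, 16.2 kb at chr1:60985201-61001400, 14.4 kb at chr1:61030001-61044400, 13.4 kb at chr1:60857601-60871000 and 11.2 kb at chr1:61077401-61088600. Narrower ones lay at chr1:60889001-60894200 (5.2 kb), chr1:61045801-61049800 (4 kb) and chr1:60758401-60760600 (2.2 kb), which crosses the left edge of the window. H3K27ac islands covered 38.9% to 53.8% of the window in a library, in clusters spread along it, and 6 of the 33 bins of 10 kb were free of them in all 8 libraries.

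The 12 DNase regions found in all 8 libraries lay inside these H3K27ac regions, while those at chr1:60850601-60851600, chr1:61017201-61019000 and chr1:61058801-61061600, found in fewer libraries, lay outside every one. The widest found in all 8 were chr1:60802201-60820200 (18 kb) and chr1:60823801-60836800 (13 kb), both within the broad H3K27ac island. Next came 7.6 kb at chr1:60963801-60971400, 7 kb at chr1:61030801-61037800, 6.4 kb at chr1:60993001-60999400 and 6.2 kb at chr1:60972201-60978400. Narrower shared regions included chr1:61082401-61085800 (3.4 kb), chr1:60930601-60933800 (3.2 kb), chr1:60955001-60957400 (2.4 kb) and chr1:60986601-60988600 (2 kb). The site at chr1:60955001-60957400 held the strongest DNase island of the locus in 4 of 8 lists, and its score percentile lay between 88.5 and 96.3 in all 8. The strongest island was chr1:60965401-60970600 in late KO replicate 2, chr1:60805801-60813200 in late WT replicate 1, chr1:60963801-60971200 in late WT replicate 2 and chr1:60824001-60836800 in early WT replicate 2.

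**Figure D1:**
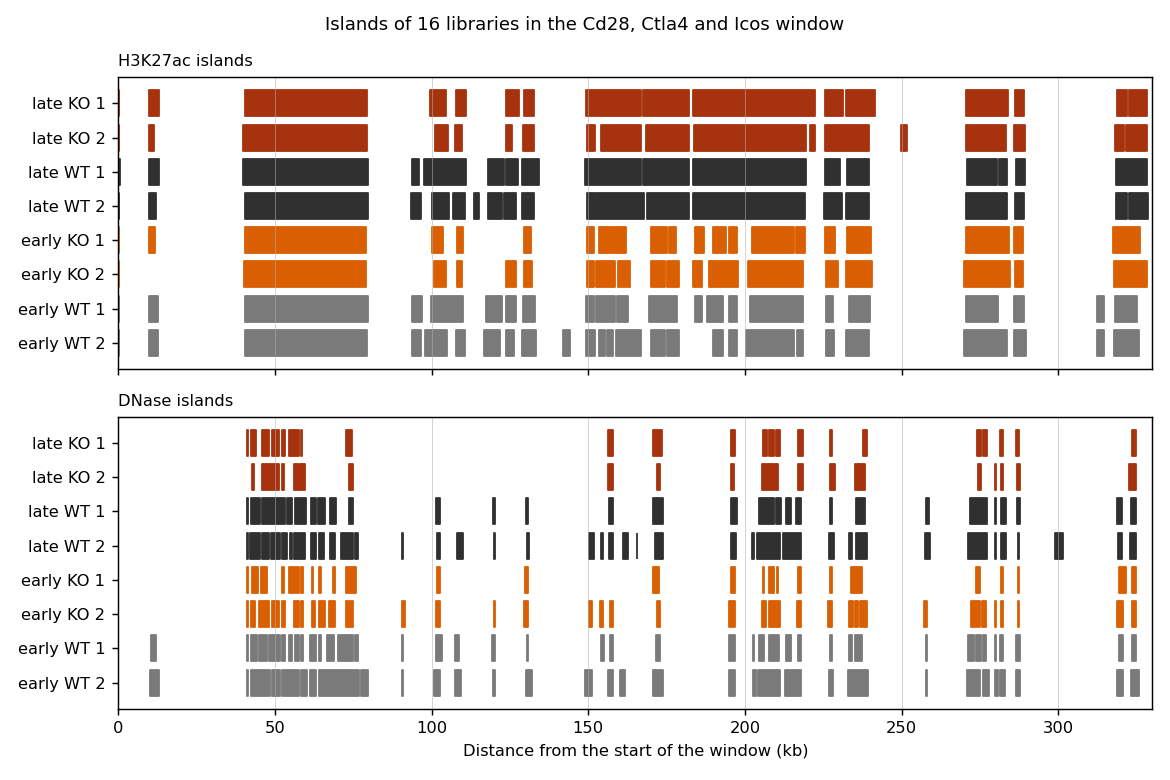
Islands of each library along the 330-kb window (x axis, kb from its start), H3K27ac above and DNase below, 1 line per library, with late KO, late WT, early KO and early WT replicates from top to bottom. The broad H3K27ac island of 38.8 to 39.6 kb is present in all 8 libraries, and islands right of the window's middle join in late cells.

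Over the whole window, DNase islands covered less DNA in KO cells and H3K27ac islands more in late cells. DNase islands covered 31.8 and 30.2 kb in late KO cells, against 58.2 and 72.2 kb in late WT cells. They covered 31.8 and 49.2 kb in early KO cells, against 55.8 and 88.4 kb in early WT cells. All 4 KO libraries were below all 4 WT libraries. The means were 35.75 ± 8.998 kb in KO and 68.65 ± 15.0 kb in WT (SD, n = 4 each), a difference of -32.9 kb with an exact two-sided permutation p of 0.0286, the smallest this design allows. Per Mb of each list's covered length, the locus held on average 1189 bases in late KO against 1340 in late WT, and 1006 in early KO against 1264 in early WT. On that scale the exact two-sided permutation p was 0.0571, above the threshold of 0.05. With the lists cut to equal length the difference in covered length was -19.55 kb (exact two-sided permutation p = 0.0286), smaller than with the full lists and still past the threshold.

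In late KO cells H3K27ac islands covered 169.2 and 160.0 kb, and in late WT cells 177.6 and 173.0 kb. The early KO libraries had 128.4 and 141.0 kb, and the early WT libraries 145.2 and 152.2 kb. Every late library exceeded every early one. The means were 169.95 ± 7.47 kb late and 141.7 ± 9.998 kb early (SD, n = 4 each), a difference of 28.25 kb (exact two-sided permutation p = 0.0286). Between genotypes the H3K27ac means were 149.65 ± 18.4 kb in KO and 162 ± 15.7 kb in WT (SD, n = 4 each), a difference of -12.35 kb that did not pass (exact two-sided permutation p = 0.343). DNase coverage was 48.1 ± 20.6 kb late and 56.3 ± 23.7 kb early (SD, n = 4 each), a difference of -8.2 kb that did not pass either (exact two-sided permutation p = 0.629) and turned to 2.5 kb without early WT replicate 2.

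**Figure D2:**
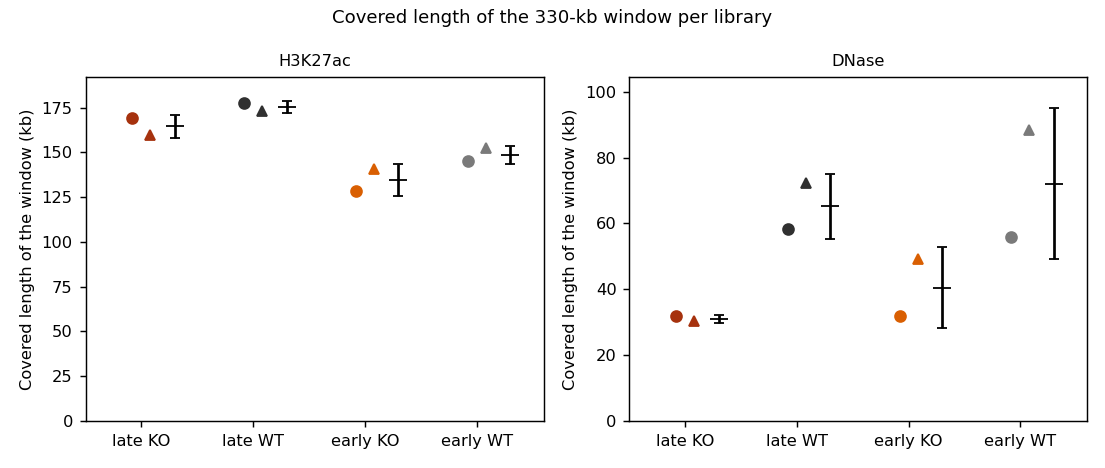
Covered length of the window in kb for each library (circles replicate 1, triangles replicate 2) with the group mean and SD as bars (n = 2), for H3K27ac at left and DNase at right. Late libraries stand above early ones for H3K27ac, and KO libraries below WT ones for DNase.

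To place the differences, covered length in 10-kb bins was fitted over the whole genome with limma on the log2(kb + 0.5) scale, and a bin is called at a Benjamini-Hochberg adjusted p under 0.05. The added 0.5 kb makes a difference from a group at 0 depend on it, so such values are no fold bounds. Each library was also shifted to an equal median over shared bins, and this moves empty bins too. The DNase bin at chr1:60770001-60780000 held 0 kb in every late library and still had a late KO difference of 0.36 (not called). Of the 33 bins of the window, 26 had enough H3K27ac islands to be tested and 23 had enough DNase islands.

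A stretch of about 50 kb to the right of the broad island carried less H3K27ac in KO cells at both stages. Island presence differed most at chr1:60853601-60856800, which was listed in all 4 WT libraries and in none of the 4 KO libraries, the 1 region of 17 with that pattern (0.49% of regions over the genome). No region of the window showed the reverse, listed in all 4 KO and no WT libraries, which 2.04% of regions did over the genome. A 200-bp count found another such stretch inside a longer region, chr1:60878001-60882000, where all 4 WT lists and no KO list held an island. Together these stretches made up 6.2 kb, or 3.07% of the 202 kb covered in any library, against 0.368% over the genome. The reverse pattern covered 0 kb in the window and 1.24% of covered windows over the genome.

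In the bin at chr1:60850001-60860000, H3K27ac islands covered 0.6 and 0 kb in late KO against 4.6 and 3 kb in late WT cells. They covered 0 and 0 kb in early KO against 3.2 and 5 kb in early WT cells. KO and WT libraries did not overlap. The log2 difference was -2.55 (SE 0.38, adjusted p = 0.0123 with limma) late and -3.21 (SE 0.38, adjusted p = 0.00242) early. The late call was lost without late WT replicate 1 (adjusted p = 0.0868), and both were lost when the lower-scored 50% of each list was dropped. The late difference was then -0.74 (adjusted p = 0.840) and the early one -2.70 (adjusted p = 0.144). The WT islands at chr1:60853601-60856800 had score percentiles of 10.6 and 28.2 in late WT and 54.2 and 47.5 in early WT, so these are islands of low to middle rank in their lists.

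In the bin at chr1:60870001-60880000, coverage was 1 and 0 kb in late KO against 3 and 4.2 kb in late WT cells, and 0 and 0 kb in early KO against 2.6 and 3.8 kb in early WT cells. Again the genotypes did not overlap. Averaged over both stages the difference was -2.59 (SE 0.34, adjusted p = 0.00383) and passed under all 16 alternatives tried for it, with adjusted p from 0.00262 to 0.0190. Other bin sizes and starts are not among these 16. The difference was -0.78 when the lower-scored islands were dropped and -1.31 with 2 kb added in place of 0.5 kb. Stage by stage it passed early (-2.91, adjusted p = 0.0103) and missed late (-2.27, adjusted p = 0.0521). The early call was lost without early KO replicate 1 (adjusted p = 0.0647), early KO replicate 2 (adjusted p = 0.0595) or early WT replicate 2 (adjusted p = 0.0566). It was also lost when the lower-scored islands were dropped, where the difference was -0.04 (adjusted p = 0.950).

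The bins between and beside them differed less. At chr1:60860001-60870000, 6.8 and 6.6 kb were covered in late KO against 10 and 8.6 kb in late WT, and 5.8 and 5.6 kb in early KO against 10 and 7.2 kb in early WT. Here KO cells kept islands but shorter ones, with an average difference of -0.53 (SE 0.11, adjusted p = 0.0227). That call was lost without any 1 of the 4 late libraries or either early KO library, at adjusted p from 0.0534 to 0.0927. At chr1:60890001-60900000, 2.8 and 2.6 kb were covered in late KO against 4.2 and 2.8 kb in late WT, and 1.8 and 2.2 kb in early KO against 3 and 3.2 kb in early WT. Its call (average -0.46, adjusted p = 0.0497) was lost under 15 of 16 alternatives, including without any 1 library but late WT replicate 2 (adjusted p 0.0950 to 0.176). At chr1:60880001-60890000 the average difference of -1.33 was not called (adjusted p = 0.0764), with 4.8 and 2.6 kb in late KO against 8 and 7.2 kb in late WT, and 0.6 and 3.6 kb in early KO against 6.4 and 5.4 kb in early WT.

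Counted over the window, KO cells had 0 bins called higher and 1 called lower in the late comparison, where 3.99% and 2.76% of bins over the genome were called higher and lower. In the early comparison they had 1 called higher and 2 called lower, against 9.17% and 5.43% over the genome. That early balance depended on the processing, with 2 higher and 0 lower when the lower-scored islands were dropped, 3 higher and 2 lower with quantile normalization, and 0 higher and 2 lower with lists of equal length. Averaged over stages the counts were 1 higher and 4 lower of 26, against 10.8% and 7.39%. All 4 lower calls lay in the stretch just described. That stretch was picked out after the values were seen, so their place in it is no test of clustering. The averaged counts were 2 higher and 3 lower without centring, 3 and 3 with quantile normalization, and 0 and 4 with lists of equal length. KO libraries lay wholly below WT libraries in 4 bins, a pattern seen in 2.08% of bins over the genome, and wholly above in 1 bin (5.64%). The median difference of the window's bins was near 0, at -0.05 late and -0.04 early, against -0.04 and -0.03 over all bins tested.

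**Figure D3:**
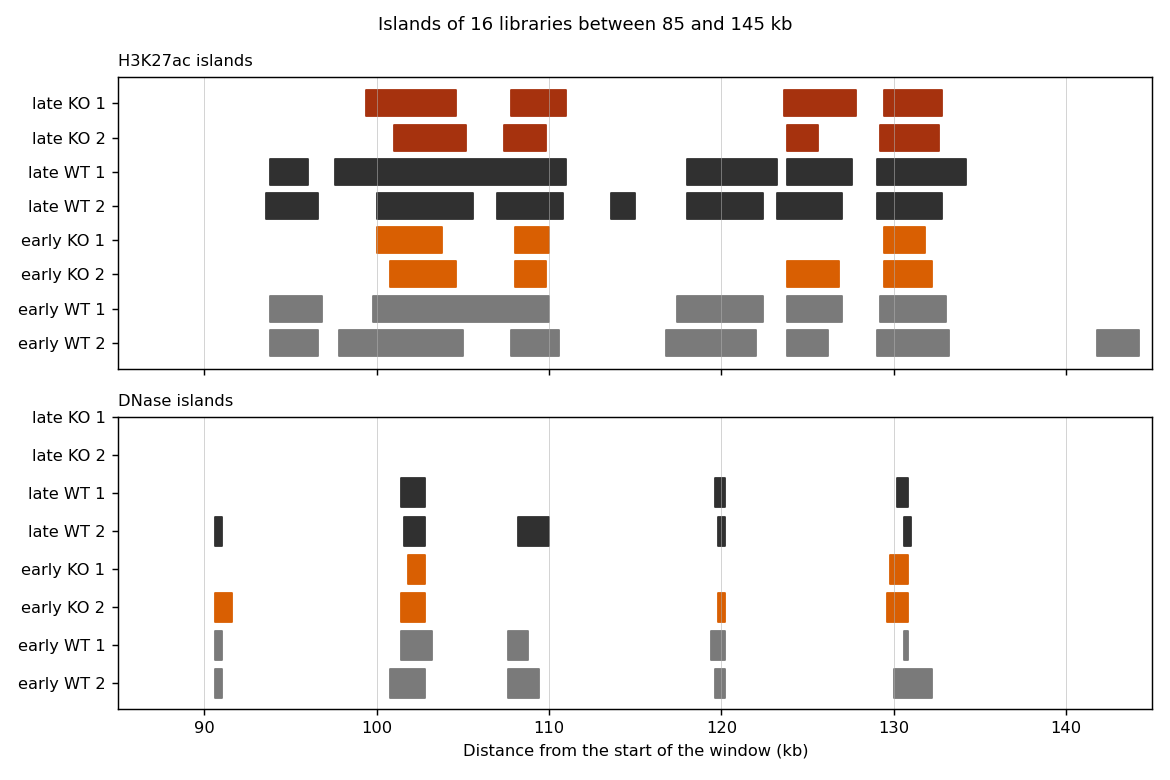
Islands of each library around the stretch of reduced H3K27ac (x axis, kb from the window's start), H3K27ac above and DNase below, with late KO, late WT, early KO and early WT replicates from top to bottom. The H3K27ac islands at chr1:60853601-60856800 and at chr1:60878001-60882000 appear in all 4 WT rows and in no KO row, and the late KO rows hold no DNase island.

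With bins of 50 kb the whole stretch falls in 1 bin, chr1:60850001-60900000. H3K27ac islands covered 16 and 11.8 kb there in late KO against 29.8 and 25.8 kb in late WT cells, with means of 13.9 ± 2.97 and 27.8 ± 2.83 kb (SD, n = 2 each). They covered 8.2 and 11.4 kb in early KO against 25.2 and 24.6 kb in early WT cells, with means of 9.8 ± 2.26 and 24.9 ± 0.42 kb. The difference was -1.04 (SE 0.17, adjusted p = 0.0151 with limma) late and -1.37 (SE 0.17, adjusted p = 0.00241) early. It was the 1 bin of 7 called at either stage, where 3.04% of 50-kb bins over the genome were called lower late and 7.6% early. Bins of 50 kb were not refitted with libraries left out, equal lengths or score filters. This bin was named after its values were seen. The late effect did not differ detectably from the early one (difference 0.33, SE 0.24, adjusted p = 0.519). The neighbouring bin to the left, which holds the broad island, held 39 and 39.4 kb (late KO), 39.6 and 39.2 kb (late WT), 38.8 and 39 kb (early KO) and 39.4 and 39 kb (early WT).

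DNase islands also covered less of this stretch in KO than in WT cells of the same stage, a difference called late and not early. Across stages the KO and WT libraries overlapped. The 50-kb bin had 0 and 0 kb in late KO against 2.6 and 4.2 kb in late WT cells, and 2 and 4 kb in early KO against 4.4 and 7 kb in early WT cells. The late difference was -2.25 (SE 0.34, adjusted p = 0.0170 with limma), where 1.51% of 50-kb bins over the genome were called lower. The early difference of -0.49 was not called (adjusted p = 0.659), and the test of late against early effects did not pass (adjusted p = 0.198). Both late KO lists lacked every DNase island of the stretch, and they were also the shortest of the 8 DNase lists. This bin was not refitted with lists of equal length, so the part of list length was not tested.

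**Figure D4:**
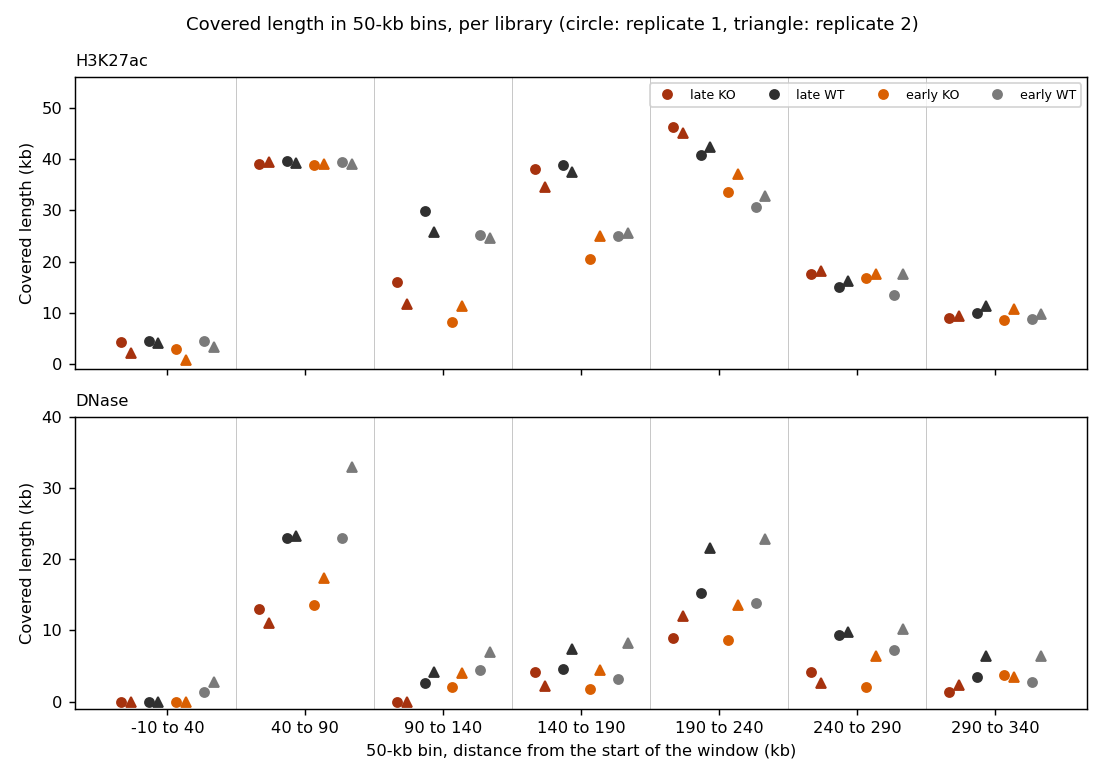
Covered length in kb in the 50-kb bins that touch the window (x axis, kb from its start, the outer bins reaching 10 kb beyond it), 1 point per library, for H3K27ac above and DNase below. In the third bin from the left the KO libraries lie between 8.2 and 16 kb of H3K27ac, against 24.6 to 29.8 kb in the WT libraries.

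Among 10-kb bins of the full lists, the DNase calls were all lower in KO or in late cells. With lists of equal length those by stage did not keep that direction, with 1 bin higher and 0 lower in late KO against early KO cells and 1 higher and 1 lower in late WT against early WT cells. Those by genotype were again all lower in KO, with 0 bins late, 1 early and 2 averaged. In the late comparison 0 bins were called higher and 2 lower in KO, against 0.343% and 1.81% of bins over the genome. In the early comparison 0 were called higher and 1 lower, against 0.54% and 0.689%, and averaged over stages 0 and 2, against 0.652% and 0.894%. The window's median difference was -0.28 late and -0.31 early, against -0.17 and -0.09 over all bins tested. KO libraries lay wholly below WT libraries in 3 bins, as in 6.64% of bins over the genome, and wholly above in 0 (0.394%). Late libraries lay wholly above early ones in 0 bins (0.375% over the genome) and wholly below in 0 (2.61%).

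The bin at chr1:60820001-60830000, inside the broad H3K27ac island, had DNase islands over 0 and 0 kb in late KO against 5.6 and 4.6 kb in late WT cells, and over 1.4 and 4.6 kb in early KO against 5 and 8 kb in early WT cells. Only the late KO libraries held no DNase island there, and their DNase lists were the shortest. The test of late against early KO effects did not pass (-2.24, adjusted p = 0.132 with limma). The late difference was -3.12 (SE 0.40, adjusted p = 0.0204) and the average one -2.003 (SE 0.28, adjusted p = 0.0369). The late call was lost with lists of equal length (-2.17, adjusted p = 0.0832) and without any 1 WT library (adjusted p 0.0741 to 0.133). The average call was lost without any library but early KO replicate 2 (adjusted p 0.0663 to 0.176). The bin at chr1:60860001-60870000 had 0 and 0 kb in late KO against 1.4 and 3 kb in late WT cells, and 1 and 1.4 kb in early KO against 3 and 3.8 kb in early WT cells. Its late difference was -2.01 (SE 0.36, adjusted p = 0.0401) and its average one -1.48 (SE 0.25, adjusted p = 0.0432). The late value turned positive, at 0.28 with adjusted p = 0.659, when lists were brought to equal length, and the call was lost without any 1 library but the early KO ones (adjusted p 0.0729 to 0.177). The average call was lost without any 1 of the 8 libraries (adjusted p 0.0530 to 0.178).

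The bin at chr1:60770001-60780000 held DNase islands in early WT cells, with 1.4 and 2.8 kb there and 0 kb in the 6 other libraries. Those islands ranked low in their lists, at score percentiles of 20.3 and 8.44. The bin was called lower in early KO against early WT cells (-2.07, SE 0.32, adjusted p = 0.0467) and in late WT against early WT cells (-2.27, SE 0.32, adjusted p = 0.0317). The KO call was lost without any 1 KO or late WT library (adjusted p 0.0691 to 0.188), and the stage call without any 1 late library (adjusted p 0.114 to 0.195). Without either early WT library the bin had too few islands to be tested. No H3K27ac bin there was called.

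Averaged over stages, the bin at chr1:60770001-60780000 was not called for KO against WT (-0.86, adjusted p = 0.106). A further 3 DNase bins complete the 6 of smallest p in that comparison, and none was called. At chr1:60970001-60980000, 2.6 and 2 kb were covered in late KO against 4.6 and 7 kb in late WT, and 1.2 and 2.4 kb in early KO against 3.8 and 6.4 kb in early WT (-0.92, adjusted p = 0.0899). At chr1:61030001-61040000 the values were 2.4 and 1.2 kb in late KO against 5.6 and 6.2 kb in late WT, and 1.2 and 4.4 kb in early KO against 4.4 and 6.4 kb in early WT (-0.96, adjusted p = 0.181). At chr1:61040001-61050000 they were 1.8 and 1.4 kb in late KO against 2.8 and 2 kb in late WT, and 0.8 and 1 kb in early KO against 2.4 and 3.4 kb in early WT (-0.56, adjusted p = 0.181). The last of these turned positive with lists of equal length (1.21, adjusted p = 0.168).

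By presence, 19 of the 31 DNase regions of the locus were listed in more WT than KO libraries, 12 in as many of each and 0 in more KO libraries. Over the genome 56.8% of DNase regions were in more WT than KO libraries and 10.4% in more KO than WT libraries. Regions were then merged over the 4 libraries of a stage, and counted where both libraries of 1 genotype and neither of the other held an island. In late cells 8 of 34 DNase regions were WT-alone and 0 KO-alone, against 21.7% and 0.955% over the genome. In early cells 3 of 32 were WT-alone and 0 KO-alone, against 9.44% and 2% over the genome. These shares lie close to the background, and with lists of equal length the counts were 1 WT-alone and 1 KO-alone at each stage.

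The 8 late WT-alone DNase regions were 0.6 to 2.2 kb wide. A group of 3 lay within the broad H3K27ac island, at chr1:60821601-60823000, chr1:60823801-60826000 and chr1:60827601-60829600. Another 3 lay in the stretch of reduced H3K27ac, at chr1:60861401-60862800, chr1:60879601-60880200 and chr1:60890201-60891000. The last 2 lay at chr1:61017401-61019000 and chr1:61078601-61080200. The site at chr1:60879601-60880200 falls inside the H3K27ac stretch that all 4 WT lists and no KO list held, and it was listed in all 4 WT libraries and, of the KO libraries, in early KO replicate 2. In early cells the WT-alone DNase regions were chr1:60770201-60773000, chr1:60867601-60869400 and chr1:60962401-60963600.

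For H3K27ac, 1 of 15 late regions was WT-alone and 0 were KO-alone, against 4.07% and 5.66% over the genome. It was chr1:60853601-60856600. Of 22 early regions, 3 were WT-alone and 0 KO-alone, against 4.2% and 10.4% over the genome. They were chr1:60853801-60856800, chr1:60876801-60882400 and chr1:61072201-61074400. Over all 4 libraries of a stage, 12 of 15 late and 15 of 22 early regions were shared, where 71.1% and 62.2% of regions over the genome were.

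Late cells carried more H3K27ac than early cells in the middle of the locus, within chr1:60900001-61000000, in both genotypes. Early KO cells received 4-OHT in their initial culture and late KO cells in a later one. In KO cells, stage and the time of 4-OHT therefore cannot be told apart. In the lists, islands that were separate in early cells joined in late cells. Score ranks differed as well at chr1:60909001-60942000. Its highest score percentile was 62.2 to 71.6 in early lists and 95.1 to 96.4 in late lists. Without counts, width and strength of signal cannot be told apart. Between about 60943401 and 60979400, late KO replicate 2 and late WT replicate 2 each had 1 island of 35.8 kb, late KO replicate 1 had 1 of 39 kb, and late WT replicate 1 had 1 of 15.2 and 1 of 20.2 kb. Early lists held several islands over the same stretch, covering 25.8 and 30 kb in early KO and 26.2 and 23.2 kb in early WT cells. To the left, chr1:60939001-60942000 was covered in all 4 late lists and no early list, the longest of the stretches with that pattern. Such stretches added up to 7.2 kb, or 3.56% of the DNA covered in any library, against 1.52% over the genome. Stretches in all 4 early and no late lists came to 0.2 kb, or 0.0990%, against 1.05% over the genome.

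In the fit, late WT cells had 4 H3K27ac bins called higher than early WT cells and 1 lower, against 9.54% and 6.77% of bins over the genome. Late KO cells had 4 called higher than early KO cells and 0 lower, against 4.65% and 4.95%. The comparisons by stage have no library in common between genotypes, but within the fit they share the estimate of spread of each bin. The median late-early difference of the window was 0.18 in WT and 0.30 in KO, against 0.04 over all bins in both. All 4 late libraries were above all 4 early ones in 7 bins (6.15% of bins over the genome), and below in 1 bin (5.18%).

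The bin at chr1:60980001-60990000 rose in both genotypes, with 7 and 6 kb in late KO against 3.2 and 3.8 kb in early KO cells, and 4.6 and 4.8 kb in late WT against 2.2 and 2.4 kb in early WT cells. The stages did not overlap. The late-early difference was 0.85 (SE 0.11, adjusted p = 0.00398) in KO and 0.94 (SE 0.11, adjusted p = 0.00180) in WT. The WT call held under all 16 alternatives, which keep the edges of the bin. The KO call was lost without late KO replicate 1 (adjusted p = 0.0619), and at a difference of 0.63 both with lists of equal length (adjusted p = 0.0623) and with the lower-scored islands dropped (adjusted p = 0.122). The same bin was the 1 bin of the locus called higher in KO than in WT cells, averaged over stages (0.43, SE 0.07, adjusted p = 0.0110) and early (0.47, SE 0.11, adjusted p = 0.0334). The average call was lost with lists of equal length (0.38, adjusted p = 0.0653), and without late KO replicate 1 (adjusted p = 0.0556) or late WT replicate 1 (adjusted p = 0.0516). The early call was lost with lists of equal length (0.55, adjusted p = 0.0734), with 2 kb added (0.33, adjusted p = 0.0559), without the variance trend, and without any 1 library but late WT replicate 2 (adjusted p 0.0527 to 0.161). With the lower-scored islands dropped the differences were larger, at 1.59 averaged and 2.96 early.

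The bin at chr1:60950001-60960000 was filled in late KO cells, with 10 and 10 kb against 6.6 and 7.8 kb in early KO, and had 9.4 and 10 kb in late WT against 5.6 and 5.6 kb in early WT cells. The difference was 0.49 (SE 0.10, adjusted p = 0.0307) in KO and 0.78 (SE 0.10, adjusted p = 0.00287) in WT. The KO call was lost without any 1 library but late WT replicate 2 (adjusted p 0.0660 to 0.261), while the WT call held without each library in turn. Both were lost with the lower-scored islands dropped (1.05, adjusted p = 0.291 in KO and 1.72, adjusted p = 0.0575 in WT). At chr1:60970001-60980000, 10 and 9.4 kb were covered in late KO against 8.6 and 8.6 kb in early KO, and 9.4 and 9.2 kb in late WT against 7.8 and 7.6 kb in early WT cells. It was called in WT (0.30, SE 0.07, adjusted p = 0.0293), a call lost without any 1 of the 4 WT libraries (adjusted p 0.0571 to 0.127).

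Bins further left were called in KO and not in WT, and the test of that difference between genotypes did not pass in either bin. At chr1:60920001-60930000, 9.2 and 8.4 kb were covered in late KO against 2 and 3.4 kb in early KO (1.62, SE 0.34, adjusted p = 0.0361), and 9.2 and 9 kb in late WT against 3.2 and 6.8 kb in early WT cells. At chr1:60930001-60940000 the values were 10 and 10 kb in late KO against 7.4 and 8.2 kb in early KO (0.38, SE 0.08, adjusted p = 0.0333), and 10 and 10 kb in late WT against 8.2 and 8.4 kb in early WT cells. In both bins the late libraries of either genotype were above the early ones. The call at chr1:60920001-60930000 was lost without any 1 KO or late WT library (adjusted p 0.0701 to 0.212), and that at chr1:60930001-60940000 without any 1 of the 8 libraries (adjusted p 0.0534 to 0.271). With 50-kb bins both genotypes passed. In chr1:60900001-60950000, late KO averaged 36.3 kb against 22.7 kb in early KO (0.72, adjusted p = 0.00384), and late WT 38.1 kb against 25.3 kb in early WT (0.63, adjusted p = 0.00449). In chr1:60950001-61000000, late KO averaged 45.6 kb against 35.3 kb in early KO (0.42, adjusted p = 0.0145), and late WT 41.6 kb against 31.7 kb in early WT (0.44, adjusted p = 0.00758). These are 2 of the 7 bins in each genotype, where 6.01% of 50-kb bins over the genome were called higher in KO and 13.1% in WT.

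Near the right edge, chr1:61070001-61080000 moved the other way, with 1.6 and 1.6 kb in late WT against 4.2 and 4.2 kb in early WT cells (-1.12, SE 0.18, adjusted p = 0.00798). KO cells had 1.4 and 1.8 kb late against 2.6 and 2.4 kb early, which was not called. The early WT-alone island at chr1:61072201-61074400 lies in this bin, and its score percentiles of 2.75 and 2.24 are near the bottom of both lists. The WT call was lost with lists of equal length (-0.68, adjusted p = 0.177) and with the lower-scored islands dropped (-0.31, adjusted p = 0.238). In the last bin, chr1:61080001-61090000, late WT had 8.4 and 7.8 kb against 4.6 and 5.6 kb in early WT cells (0.67, SE 0.15, adjusted p = 0.0352), and KO cells 7.6 and 7.6 kb late against 6 and 8.4 kb early. This call was lost without any 1 WT or late KO library (adjusted p 0.0708 to 0.183).

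**Figure D5:**
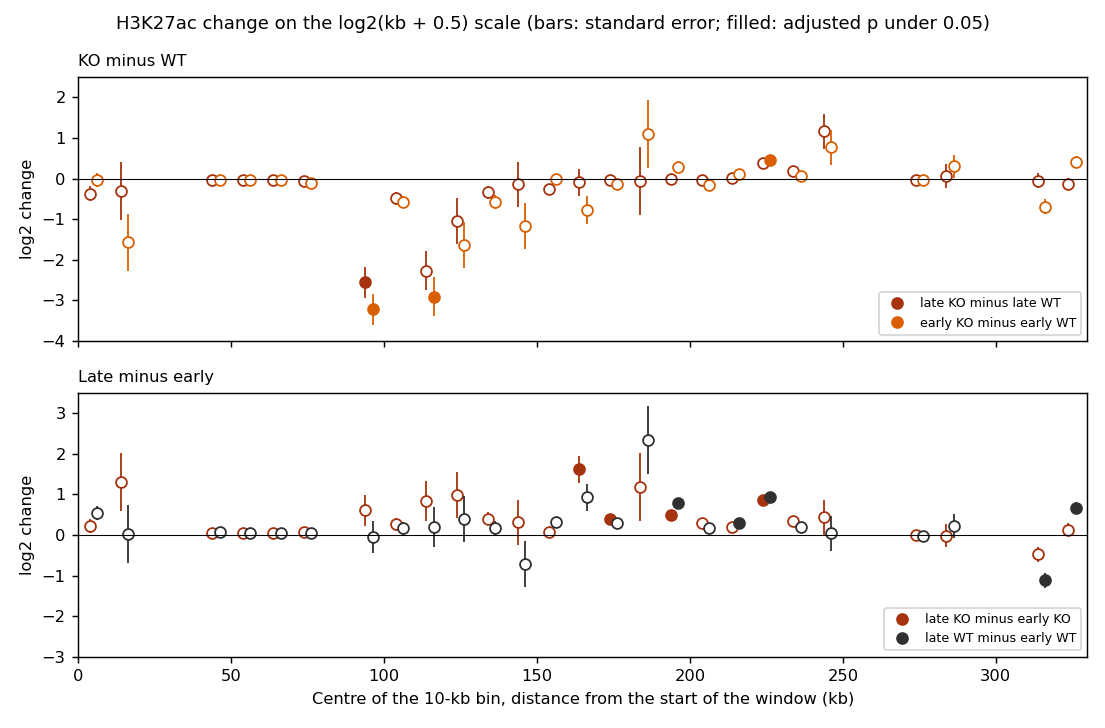
Fitted H3K27ac difference per 10-kb bin on the log2(kb + 0.5) scale, with standard error, against the bin's centre (x axis, kb from the window's start). KO minus WT is above and late minus early below, and filled points have an adjusted p under 0.05. The lowest KO points, -3.21 early and -2.55 late, lie in the same bin, chr1:60850001-60860000, and the filled late-early points with positive values lie within chr1:60920001-60990000 and in the last bin.

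No bin of the window was called for a difference between the late and the early KO effect. For H3K27ac 0 of 26 bins passed with limma, with an unadjusted p under 0.05 in 1, while 3.95% of bins over the genome were called higher and 6.18% lower. For DNase 0 of 23 passed, with an unadjusted p under 0.05 in 4, and 0% were called over the genome. The bins at chr1:60850001-60860000 and chr1:60870001-60880000 had H3K27ac differences of 0.66 (SE 0.54) and 0.64 (SE 0.68) between the late and early KO effects, with adjusted p of 0.641 and 0.725. DNase coverage by stage gave 0 bins higher and 1 lower in late WT against early WT cells, where 0.593% and 2.12% of bins over the genome were called. Late KO against early KO cells also gave 0 higher and 1 lower, where 0.197% and 2.25% were called. That bin was chr1:60820001-60830000 (-2.49, SE 0.40, adjusted p = 0.0310), and its call was lost without any 1 of the 8 libraries (adjusted p 0.0505 to 0.102).

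The H3K27ac islands of the locus were more alike between libraries than those of the genome, while the DNase means lay closer to those of the genome. Of the 200-bp windows covered in either library of a pair, a mean of 85.3% were covered in both for H3K27ac replicates (75.2% over the genome). For KO with WT libraries of a stage the mean was 79.9% (66.8%), and for late with early libraries of a genotype 76.6% (64.6%). The DNase means were 54.3% for replicates (49.99% over the genome), 43.0% for KO with WT (41.6%) and 49.7% for late with early (44.7%). DNase replicates of the locus thus shared little more than DNase libraries of different stages.

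Nearly all open DNA of the locus carried the histone mark. Of the DNA covered by DNase islands in both libraries of a group, 100% lay within H3K27ac islands of both libraries in late KO cells (21.2 kb), against 98.0% in late WT cells (50.2 kb). It was 100% in early KO (24.8 kb) and 96.2% in early WT cells (53.2 kb). Over the genome these shares were 93.8% in late KO, 88.1% in late WT, 90.3% in early KO and 77.9% in early WT cells. Stretches of DNase coverage in all 4 WT and no KO lists came to 3.8 kb, or 3.53% of the 107.6 kb covered in any library (1.08% over the genome). The longest were chr1:60973201-60974800, inside the shared region chr1:60972201-60978400, and chr1:60964401-60965400, inside the shared region chr1:60963801-60971400. The reverse pattern covered 0 kb.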

How the data were processed

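The submitters' processing notes name CASAVA 2.18, Bowtie2 and SICER 1.1 and the build mm9. The 16 deposited files, 1 for each library, list islands by position with a score, the authors' own value from the caller. Which control or how many reads a list rests on is not given in the sources used here. Since the files hold no counts, covered length was the measure, and the score only ranked islands within a list.

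Islands overlapping the window were taken from every list and trimmed to it for lengths. The genome was cut into bins of 10 kb, those with islands in fewer than 2 of an assay's 8 libraries were dropped, and covered kb were taken as log2(kb + 0.5). Each library was shifted so that its median over bins with islands in all 8 was equal. A single fit per assay held all 4 groups (limma 3.58.1 with trended variance, R 4.3.3), and p-values were adjusted over all bins, 39126 for H3K27ac and 37586 for DNase. Whole-window lengths were compared by exact permutation of 4 against 4 libraries, since 2 against 2 within a stage cannot pass. Regions were islands merged where they overlap or touch. The fit was also run on simulated bins that held islands in every library. That run does not check it for bins empty in some libraries or filled to 10 kb. Tables and plots used Python 3.11.15 with scipy 1.17.1, numpy 2.4.6, pandas 2.3.3 and matplotlib 3.10.9.

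The alternatives were other centring, list lengths, score filters, pseudocounts, bin filters, bin sizes and starts, the replicate number as a term, no variance trend, and leaving out each library. Other bin sizes and starts were used for counts of bins and not for single bins. The bins and regions named are every 10-kb bin called in any contrast, the DNase bins of smallest p up to 6, the widest 10 regions found in all 8 libraries, every region of 1 genotype alone, and each list's highest-scored island. The bin at chr1:60880001-60890000 and the bins of 50 kb were named after their values were seen. The window, its genes and these lists and rules were chosen with earlier results of these data known. No mm9 annotation was used, so the loss of Bcl11b, markers of T cells and of other cell types, and other genes of the pathway were not analysed here. RefSeq promoters of GRCm38.p6 were searched for motifs on both strands, and the GATA letters overlap no other motif searched.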

Additional observations from a re-analysis of the deposited data

Results flagged for a closer look

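Among the 4 KO libraries, the DNase-covered length of the window was 49.2 kb in early KO replicate 2, against 30.2 to 31.8 kb in the other 3. This library stood farther from the others than a test of a single outlying value in a group of 4 allows. Chance flags about 1 in 20 such groups. It was also the KO library with the longest DNase list, at 49.3 Mb covered, against 25.9 to 31.3 Mb in the other 3, and the part of list length in the value was not tested.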

How the results depend on the processing

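The limits come from lists without counts: covered length moves with how many islands were called, depth is unknown, and absence from a list is not absence of signal. With 2 libraries per group, most bin calls lie close to the threshold. For the changes below the cause was not tested, except that fewer islands or libraries enter under score filters, equal lengths and left-out libraries.

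Of 26 H3K27ac bins, 3 were called in early KO against early WT. The count was 5 without centring, 5 with quantile normalization, 10 of the bins of 5 kb and 1 of the bins of 50 kb. For late KO against late WT, 1 was called, against 2 with the upper 50% of each list by score, 2 with a pseudocount of 2 kb, 3 with bins of 5 kb and 3 with bins shifted by 5 kb. For KO against WT averaged over stages, 5 were called, 8 with bins of 5 kb and 1 with bins of 50 kb. The difference between late and early KO effects was called in 0 bins, in 4 with the upper 50% by score, in 4 with bins of 5 kb and in 1 with shifted bins. For late WT against early WT, 5 were called, 8 with bins of 5 kb and 2 with bins of 50 kb. For late KO against early KO, 4 were called, 2 with lists of equal length, 2 with bins of 50 kb and 2 without the variance trend. Leaving out 1 library at a time gave 2 to 5 calls for early KO against early WT, 0 to 2 for late KO against late WT and 2 to 7 for the average. It gave 0 to 1 for the difference of effects, 3 to 5 for late WT against early WT and 0 to 3 for late KO against early KO.

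Of 23 DNase bins, 1 was called in early KO against early WT. This fell to 0 with quantile normalization, the upper 50% by score, a pseudocount of 2 kb, bins covered in at least 1 library, bins of 50 kb, or any library left out (0 to 0). For late KO against late WT, 2 were called, 1 with quantile normalization, the upper 50% by score, a pseudocount of 2 kb or bins of 50 kb, 0 with lists of equal length or shifted bins, and 0 to 2 with a library left out. For the average, 2 were called, 5 without centring, 1 with quantile normalization, the upper 50% by score, a pseudocount of 2 kb, bins covered in at least 1 library or bins of 50 kb, 0 with shifted bins, and 0 to 1 with a library left out. The difference of effects was called in 0 bins, and in 1 without centring or with lists of equal length. For late WT against early WT, 1 was called, 2 with lists of equal length, 0 with quantile normalization, the upper 50% by score, a pseudocount of 2 kb, bins covered in at least 1 library or bins of 50 kb, and 0 to 1 with a library left out. For late KO against early KO, 1 was called, 0 with the upper 50% by score, a pseudocount of 2 kb or shifted bins, 2 with bins of 5 kb or without the variance trend, and 0 to 0 with a library left out. Among single bins, the late KO difference at chr1:60860001-60870000 turned to 0.28 with lists of equal length and 0.34 with the upper 50% by score, and the average at chr1:61040001-61050000 to 1.21 and 0.63.

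Deviations of same-numbered libraries from their group means correlated between -0.038 and 0.082, so these libraries hardly deviated together over the genome's bins. That cannot show whether same-numbered libraries shared an animal or a culture. With a replicate block the DNase counts were 0 in each comparison, and the H3K27ac counts were 3 early, 1 late, 4 averaged, 0 for the difference, 4 in WT and 4 in KO. With the replicate block the whole-window values, -32.9 kb for DNase in KO against WT and 28.25 kb for H3K27ac in late against early cells, had an exact permutation p of 0.125, the smallest that fit allows.

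Per Mb of each list's covered length, the DNase difference was -204.7 bases for KO against WT and 129.5 bases for late against early. With lists of equal length late against early was 0.45 kb. Without 1 library, KO against WT DNase ranged from -37.4 to -26.3 kb and late against early H3K27ac from 23.8 to 31.75 kb, each with an exact permutation p of 0.0571, again the smallest possible, and late against early DNase from -16.4 to 2.5 kb. The late WT-alone H3K27ac region count of 1 became 0 with islands merged within 1 kb and 2 where at least 50% of a region had to be covered. The early WT-alone DNase count of 3 became 6 under that rule and 1 with lists of equal length, where the late count of 8 became 1 and the KO-alone counts of 0 became 1 early and 1 late. The late KO-alone H3K27ac count ranged from 0 to 2 without 1 library. The share of late WT DNase coverage within H3K27ac islands was 100% with the upper 50% by score.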
